A study of Mus musculus with 6 samples.

Results

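The miRNAs described here are mmu-miR-1a-3p, mmu-miR-133a-3p, mmu-miR-133b-3p and mmu-miR-206-3p, from here on without the species prefix, known together as the muscle miRNAs or myomiRs. They were taken by name from the 6 deposited count tables of mouse brain, as every row whose name starts with miR-1a, miR-133a, miR-133b or miR-206. These were 6 of 727 rows and, with repeated rows merged, 4 of 622 mature miRNA names, all from the 3p arm of their hairpin. The tables came from small RNA sequencing of the brains of C57BL/6J mice, a common inbred strain, in a study of global cerebral ischemia followed by reperfusion. The ischemia-reperfusion group (GCI, libraries 1, 2 and 3) had both carotid arteries tied for 20 minutes, and the sham-operated group (Sham, libraries 3, 6 and 7) is labelled as untreated. The sources used here do not give the brain region, the time of reperfusion, or the sex and age of the mice. The labels do not say outright that each library is a separate animal, so p-values measure the spread between these libraries, which may be technical.

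In striated muscle, miR-1 and miR-133 are cut from shared primary transcripts that are switched on by the muscle transcription factors SRF, MEF2 and, in skeletal muscle, MyoD. miR-1 favours differentiation of muscle cells and represses the histone deacetylase HDAC4, whereas miR-133 favours proliferation of myoblasts and represses SRF. miR-206 shares its seed with miR-1, is largely restricted to skeletal muscle and aids the repair of neuromuscular synapses in mice. miR-133b, whose hairpin neighbours that of miR-206, has also been described in dopaminergic neurons of the midbrain. miR-133a and miR-133b share their seed and differ in the last base of the mature sequence, so reads that lack this base could be counted for either.

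The sequences shown are those of the pair from chromosome 1. They are credited to RefSeq (GRCm38.p6), which held a mature entry for only these 2 of the 4 miRNAs. In the mature sequences the seed, bases 2 to 8 from the 5′ end, is in capitals, and in the hairpins the 3p arm is in capitals:
miR-206-3p: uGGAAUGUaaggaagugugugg
miR-133b-3p: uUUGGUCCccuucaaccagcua
Mir206 hairpin: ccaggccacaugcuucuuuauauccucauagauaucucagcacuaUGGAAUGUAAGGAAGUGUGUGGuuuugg
Mir133b hairpin: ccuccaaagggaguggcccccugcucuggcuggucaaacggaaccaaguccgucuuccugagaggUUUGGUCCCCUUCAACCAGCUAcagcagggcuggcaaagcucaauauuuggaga

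Both mature sequences are 22 bases long. The Mir206 hairpin lies at chr1:20679010-20679082 and the Mir133b hairpin at chr1:20682769-20682887, both on the plus strand of GRCm38. The gap between them is 3686 bases, and both overlap an exon of the long intergenic noncoding RNA gene Gm28653 (GENCODE vM21). Mature miR-1a-3p and miR-133a-3p can each come from a pair of hairpins. Mir1a-1 (chr2:180389048-180389124) and Mir133a-2 (chr2:180398379-180398482) lie 9254 bases apart on the plus strand of chromosome 2, outside other genes of that annotation. Mir1a-2 and Mir133a-1 lie 2504 bases apart on chromosome 18, in introns of Mir133a-1hg and, on the opposite strand, of the ubiquitin ligase gene Mib1. The tables list miR-1a-3p and miR-133a-3p once for each hairpin with nearly the same counts (23541 and 23540 for miR-1a-3p in Sham library 3), so the loci cannot be told apart in these data.

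Libraries held 1423905 to 2023475 counts with 1 entry per name, and 599 to 612 of 622 names were detected in each. At this depth 3 counts, the upper limit for a miRNA with 0 counts, equal 1.48 to 2.11 CPM (counts scaled to a common library size), a limit for counting error only. The brain miRNAs miR-124-3p, miR-9-5p, miR-128-3p, miR-219a-2-3p and miR-138-5p together stood at 86090 to 97840 CPM in GCI libraries and at 91320 to 107800 CPM in Sham libraries. Most of each sum was miR-9-5p, at 60905 to 82189 CPM in a library. For 2 of the 5 the GCI values lay below all Sham values (21.8% of all tested miRNAs did not overlap). These were miR-128-3p (4591 to 7363 against 7735 to 8574 CPM) and miR-138-5p (1148 to 1450 against 1461 to 1828 CPM). miR-219a-2-3p stood at 1986, 578 and 1114 CPM in GCI libraries 1, 2 and 3, against 544 to 630 CPM in Sham libraries. None of the 5 passed the edgeR test used below. Below, CPM are counts over library sizes scaled by the trimmed mean of M values (TMM). Ligation of adapters favours some miRNA ends, so a level is best compared for the same miRNA between libraries.

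None of the 4 muscle miRNAs passed the test between GCI and Sham brain, and the GCI and Sham values of each overlapped. miR-1a-3p was by far the most abundant, and its mean and those of both miR-133 miRNAs were close in the groups. miR-206-3p had a higher GCI mean that rested on GCI library 1. With the quasi-likelihood test of edgeR, adjusted by Benjamini-Hochberg over all 440 tested miRNAs, 0 of the 4 were called, against 2.27% of all tested miRNAs. At an unadjusted p under 0.05 the edgeR count was again 0 of 4 (16.8% of all tested), and DESeq2 (5.91% of all tested) and limma-voom (2.27% of all tested) also called 0 of 4. The groups overlapped for 4 of 4, and 21.8% of all tested miRNAs had groups that did not overlap. With only 4 miRNAs, 0 called and 0 without overlap lie near these shares. The median log2 fold change of GCI over Sham was 0.078 over the 4 and −0.054 over all tested miRNAs.

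**Figure D1:**
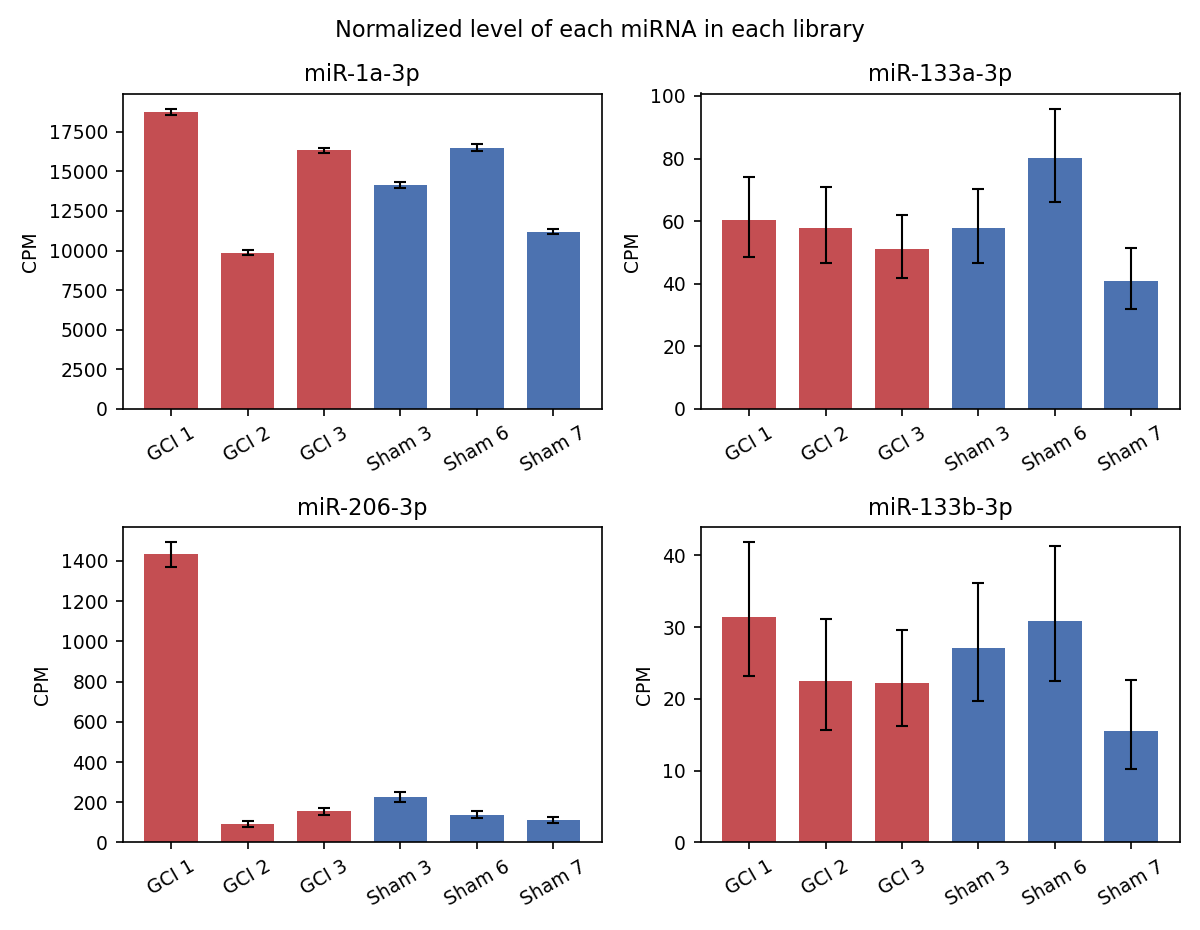
Normalized level (CPM) of each muscle miRNA in GCI libraries 1, 2 and 3 (red) and Sham libraries 3, 6 and 7 (blue), with exact 95% Poisson intervals that cover counting error only. miR-206-3p stood at 1432 CPM in GCI library 1 and at 92.9 to 226 CPM in the other libraries, and the values of all 4 miRNAs overlap between the groups.

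miR-1a-3p, the miRNA of heart and skeletal muscle differentiation, stood at 18743, 9875 and 16328 CPM in GCI libraries 1, 2 and 3. In Sham libraries 3, 6 and 7 it stood at 14142, 16497 and 11191 CPM. The GCI values enclosed all Sham values, with the highest and the lowest value of the series in GCI libraries 1 and 2. Its mean was 14982 ± 4585 CPM in GCI and 13943 ± 2659 CPM in Sham (SD, n = 3 each). The log2 fold change of 0.10 ± 0.27 (SE) did not pass (adjusted p = 0.856, edgeR, Benjamini-Hochberg), and its 95% interval ran from 0.70-fold to 1.65-fold. Among 622 names it ranked from 12 to 16 by count in the 6 libraries. It held 92.5% of the counts of the 4 muscle miRNAs in GCI library 1 and 97.9% to 98.6% in the other libraries. These 4 miRNAs together took 1.94%, 0.990% and 1.70% of all counts in GCI libraries 1, 2 and 3, and 1.46%, 1.72% and 1.13% in Sham libraries 3, 6 and 7. In bulk tissue, fewer cells of a type and less RNA per cell cannot be told apart.

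miR-133a-3p, the cluster partner of miR-1a-3p, was far lower, with 71 to 117 counts per library. It stood at 60.2, 58.0 and 51.2 CPM in GCI libraries 1, 2 and 3, and at 57.7, 80.1 and 40.9 CPM in Sham libraries 3, 6 and 7. All GCI values lay between the lowest and the highest Sham value. The means were 56.5 ± 4.73 CPM in GCI and 59.5 ± 19.7 CPM in Sham (SD, n = 3 each). The log2 fold change was −0.074 ± 0.27 (SE, adjusted p = 0.906, edgeR, Benjamini-Hochberg), with a 95% interval of 0.626-fold to 1.44-fold.

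miR-133b-3p had the lowest level of the 4 in every library, with 27 to 47 counts. It stood at 31.5, 22.4 and 22.2 CPM in GCI libraries 1, 2 and 3, and at 27.0, 30.8 and 15.5 CPM in Sham libraries 3, 6 and 7. The GCI values overlapped the Sham values, and counting error alone was wide: 23.1 to 41.8 CPM in GCI library 1 and 10.2 to 22.6 CPM in Sham library 7 (exact 95% Poisson intervals). The means were 25.4 ± 5.28 CPM in GCI and 24.5 ± 7.95 CPM in Sham (SD, n = 3 each). The log2 fold change was 0.053 ± 0.31 (SE, adjusted p = 0.934, edgeR, Benjamini-Hochberg), with a 95% interval of 0.643-fold to 1.67-fold.

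miR-206-3p, the skeletal muscle miRNA with the seed of miR-1, stood at 1432, 92.9 and 155 CPM in GCI libraries 1, 2 and 3. In Sham libraries 3, 6 and 7 it stood at 226, 138 and 110 CPM. GCI library 1, with 2139 counts, was far above all others, whereas GCI library 2 held the lowest value and GCI library 3 lay within the Sham range. Its mean was 560 ± 756 CPM in GCI and 158 ± 60.2 CPM in Sham (SD, n = 3 each). The log2 fold change of 1.82 ± 0.87 (SE), or 3.53-fold, did not pass (adjusted p = 0.298, edgeR, Benjamini-Hochberg), and its 95% interval ran from 0.908-fold to 13.7-fold. Without GCI library 1 the log2 fold change was −0.33 ± 0.34 (adjusted p = 0.745), and with any other single library left out it was 1.62 to 2.34, with adjusted p-values of 0.0515 to 0.536 (edgeR, Benjamini-Hochberg). By limma-voom, which works on log values, the log2 fold change was 0.84 ± 0.87 (SE, adjusted p = 0.626).

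**Figure D2:**
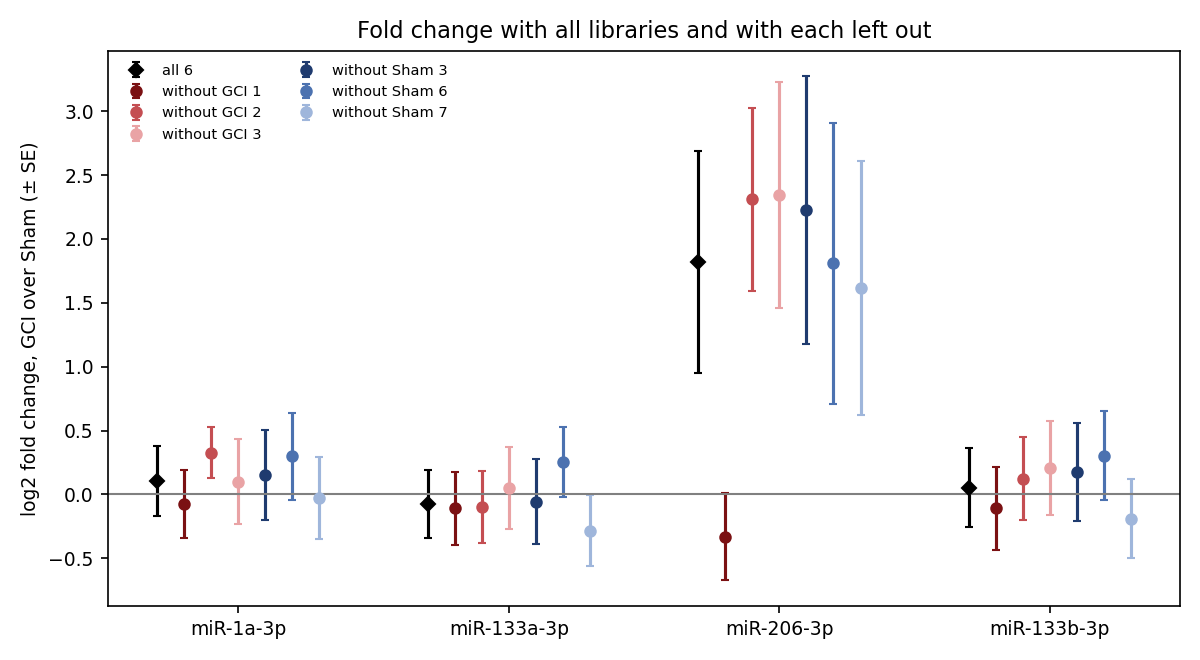
Log2 fold change of GCI over Sham (y axis, with SE) for each muscle miRNA, with all 6 libraries (black diamonds) and with each library left out in turn (circles). Without GCI library 1 the value of miR-206-3p was −0.33, against 1.82 with all libraries, and the other 3 miRNAs lay between −0.28 and 0.33 under every omission.

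In every library the order of the levels in CPM was miR-1a-3p, miR-206-3p, miR-133a-3p and miR-133b-3p, from high to low. The smallest gap between neighbours in a library, apart from that of the 2 miR-133 miRNAs, was that of miR-206-3p at 92.9 CPM and miR-133a-3p at 58.0 CPM in GCI library 2. Their exact 95% Poisson intervals there, 78.6 to 109 CPM and 46.8 to 71.0 CPM, did not overlap. Those of miR-133a-3p and miR-133b-3p did not overlap in any library, with 31.9 to 51.5 CPM against 10.2 to 22.6 CPM in Sham library 7. These intervals cover counting error only. They do not cover the bias of ligation between miRNAs or the assignment of reads that match both miR-133 miRNAs, so the order is one of counts. Across libraries, the lowest miR-206-3p value of 92.9 CPM still lay above the highest miR-133a-3p value of 80.1 CPM.

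The libraries of each group differed from one another in the same way for several of the 4. In the Sham group, library 7 held the lowest value of all 4 miRNAs, and library 6 the highest value of all but miR-206-3p. In the GCI group, library 1 held the highest value of all 4, and library 2 the lowest value of miR-1a-3p and miR-206-3p. The share of all tested miRNAs with these orders was not counted, so they are not shown to be particular to the muscle miRNAs. One miRNA outside the group, miR-344b-3p, had the same order of libraries as miR-1a-3p. The coefficient of variation (CV, SD over mean) of CPM over the 3 GCI libraries was 135% for miR-206-3p, and no other of the 440 tested miRNAs had a higher one. It was 30.6% for miR-1a-3p, 20.8% for miR-133b-3p and 8.38% for miR-133a-3p, against a median of 25.1% over all tested miRNAs. Over the 3 Sham libraries the CV was 38.1% for miR-206-3p, 33.1% for miR-133a-3p, 32.5% for miR-133b-3p and 19.1% for miR-1a-3p. The Sham median over all tested miRNAs was 12.7%, so each of the 4 lay above it. The 2 miR-133 miRNAs had 27 to 117 counts in a library, so part of their spread is counting error.

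**Figure D3:**
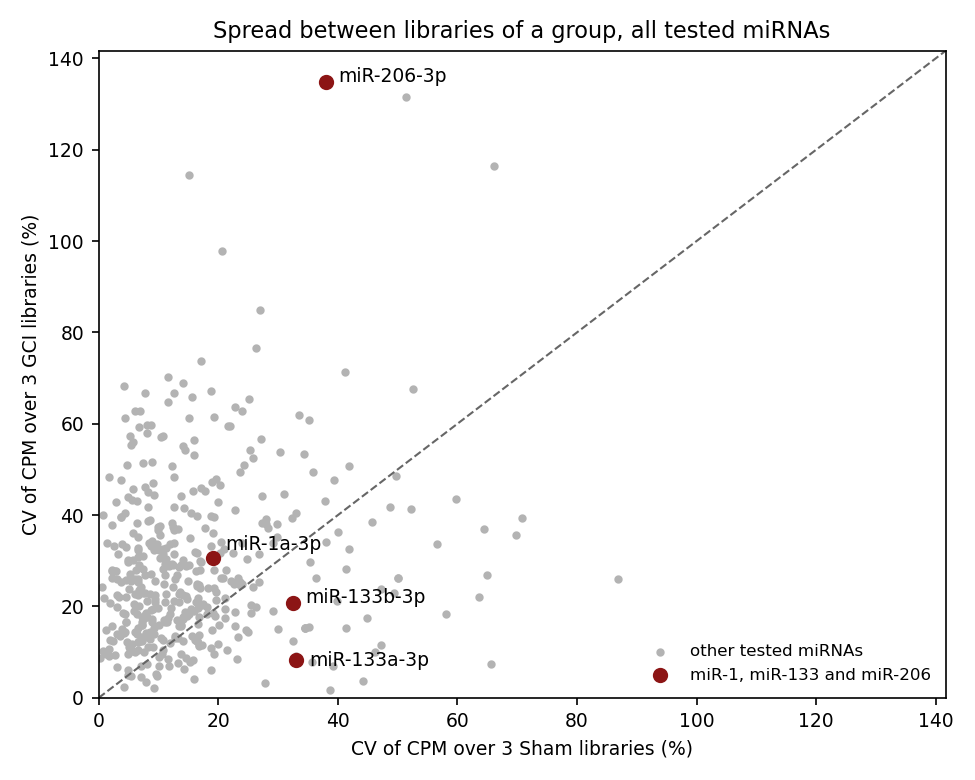
CV of CPM over the 3 GCI libraries (y axis, %) against that over the 3 Sham libraries (x axis, %) for each of the 440 tested miRNAs, with the muscle miRNAs in dark red and equal spread as a dashed line. miR-206-3p has the highest GCI value, 135%, and all 4 muscle miRNAs lie to the right of the Sham median of 12.7%.

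Ratios of counts within a library need no scaling, and 4 were tested, those of the partners of each cluster and those of the miRNAs with a shared seed. Two-sided exact permutation tests of GCI against Sham gave p-values of 0.5 to 0.9 (adjusted p = 0.9 for each over the 4 ratios, Benjamini-Hochberg). The smallest p that 3 against 3 libraries allow is 0.1, so no ratio could pass a threshold of 0.05. The counts of miR-1a-3p were 311, 170 and 319 times those of miR-133a-3p in GCI libraries 1, 2 and 3, and 245, 206 and 274 times in Sham libraries 3, 6 and 7. The GCI ratios enclosed the Sham ratios. The difference of GCI minus Sham in the mean log2 ratio was 0.097 (p = 0.8, exact permutation test).

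The ratio of miR-206-3p to miR-133b-3p was 45.5, 4.14 and 7.0 in GCI libraries 1, 2 and 3. In Sham libraries 3, 6 and 7 it was 8.36, 4.49 and 7.11. GCI library 1 stood apart from a narrow range of 4.14 to 8.36 in the other libraries, so that the high miR-206-3p level of this library was not shared by miR-133b-3p from the neighbouring hairpin. The difference of GCI minus Sham in the mean log2 ratio was 0.77 (p = 0.9, exact permutation test), and without GCI library 1 it was −0.26. The counts of miR-133b-3p behind the ratio were 47 in GCI library 1 and 36 in GCI library 2.

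The counts of miR-1a-3p were 13.1, 106 and 105 times those of its seed partner miR-206-3p in GCI libraries 1, 2 and 3, and 62.6, 119 and 101 times in Sham libraries 3, 6 and 7. Here again GCI library 1 was the library apart, and GCI libraries 2 and 3 lay within the Sham range. The difference of GCI minus Sham in the mean log2 ratio was −0.79 (p = 0.7, exact permutation test), and without GCI library 1 it was 0.21. The ratio of miR-133a-3p to miR-133b-3p was 1.91, 2.58 and 2.30 in GCI libraries 1, 2 and 3, and 2.13, 2.60 and 2.63 in Sham libraries 3, 6 and 7. Its highest value was 1.37 times its lowest, against 11.0 times for miR-206-3p to miR-133b-3p. The difference of GCI minus Sham in the mean log2 ratio was −0.12 (p = 0.5, exact permutation test). The sources used here do not say how reads that match both miR-133 miRNAs were assigned, and its part in this steady ratio was not tested.

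**Figure D4:**
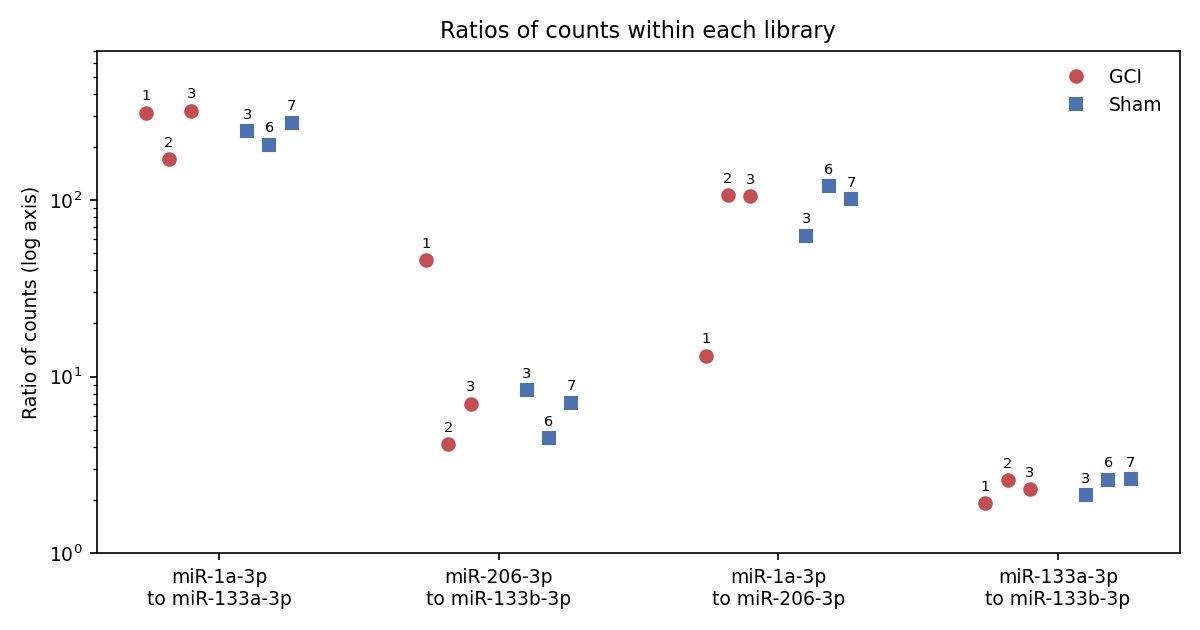
Ratio of counts within each library (log axis) for the partners of each cluster and the miRNAs with a shared seed, in GCI (red circles) and Sham (blue squares), each point marked with its library number. GCI library 1 stands apart in the ratios that hold miR-206-3p, at 45.5 and 13.1, and the ratio of miR-133a-3p to miR-133b-3p spans only 1.91 to 2.63.

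Other miRNAs of striated muscle did not pass the edgeR test either. Of a list of 8, 4 had rows in the count tables, and with p-values adjusted over all miRNAs edgeR called 0 of these 4 (2.27% of all tested), with a median log2 fold change of 0.72. With an unadjusted p under 0.05 edgeR gave 2 of 4 (16.8% of all tested). At the same adjusted threshold limma-voom called 0 (2.27% of all tested) and DESeq2 called 2 (5.91% of all tested). miR-499-5p, encoded in a myosin heavy chain gene of heart and slow muscle, stood close to the limit for 0 counts, at 6.02, 6.86 and 6.76 CPM in GCI libraries 1, 2 and 3 and 6.61, 4.79 and 2.88 CPM in Sham libraries 3, 6 and 7. miR-378a-3p, a metabolic miRNA of muscle and other tissues, stood at 2432, 1746 and 1492 CPM in GCI libraries 1, 2 and 3 and at 1796, 1937 and 1957 CPM in Sham libraries 3, 6 and 7. GCI library 1 was the highest and the other GCI libraries were the lowest. The means of miR-378a-3p were 1890 ± 486 CPM in GCI and 1897 ± 87.7 CPM in Sham (SD, n = 3 each). The 2 under an unadjusted p of 0.05, which are also those called by DESeq2, were miR-486a-5p and miR-486b-5p, which have nearly the same counts and are abundant in red blood cells as well as muscle. miR-486a-5p had 274, 126 and 195 CPM in GCI libraries 1, 2 and 3 and 93.7, 110 and 91.5 CPM in Sham libraries 3, 6 and 7, without overlap. Of the smooth muscle and vessel miRNAs miR-143-3p, miR-145a-5p and miR-126a-3p, edgeR called 0 of 3 (2.27% of all tested). At an unadjusted p under 0.05 edgeR again gave 0 of 3 (16.8% of all tested). DESeq2 (5.91% of all tested) and limma-voom (2.27% of all tested) also called 0 of 3. With only 3 miRNAs, 0 calls lie near these shares. Their median log2 fold change was −0.051, against −0.054 over all tested miRNAs.

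Markers of other tissues differed in whether they were high in GCI library 1. The 11 epithelial and pituitary miRNAs summed to 51180, 22190 and 27390 CPM in GCI libraries 1, 2 and 3, against 2068 to 7301 CPM in Sham libraries. Of these 11, 10 were tested, and for all 10 the GCI values lay above the Sham values without overlap. Over all tested miRNAs the groups did not overlap for 21.8%. Of the 10, edgeR called 8 as higher in GCI (2.27% of all tested). DESeq2 called 9 (5.91% of all tested) and limma-voom 8 (2.27% of all tested). The exception was miR-205-5p of squamous epithelium, which did not pass the filter on low counts. It stood at 3.35, 4.36 and 8.20 CPM in GCI libraries 1, 2 and 3. In Sham libraries 3, 6 and 7 it stood at 2.40, 0 and 0.575 CPM. The 6 blood miRNAs summed to 949, 677 and 793 CPM in GCI libraries 1, 2 and 3, against 706 to 791 CPM in Sham libraries. In GCI library 1 they were split. miR-142a-3p, miR-142a-5p and miR-150-5p, of white blood cells, were above all Sham libraries. miR-451a and miR-144-3p of red blood cells and miR-223-3p of neutrophils were below all of them. The gap was small for miR-144-3p, at 20.1 CPM against a lowest Sham value of 21.3 CPM. miR-223-3p, at 2.68 CPM, was close to the limit for 0 counts. The share of all tested miRNAs above or below all Sham libraries in GCI library 1 was not counted. The vessel wall miRNAs summed to 44420 CPM in GCI library 1, within the Sham range of 34700 to 49340 CPM. Most of this sum was miR-143-3p (40601 CPM), and the vessel miRNAs were split too. In GCI library 1 miR-126a-3p, at 3585 CPM, was above all Sham libraries (highest 3370 CPM). There miR-145a-5p, at 239 CPM, was below all of them (lowest 250 CPM). GCI library 2 lay further out for both, at 3867 CPM for miR-126a-3p and 229 CPM for miR-145a-5p. The liver miRNA miR-122-5p stood at 63.6, 26.8 and 21.2 CPM in GCI libraries 1, 2 and 3, against 8.21 to 16.7 CPM in Sham libraries. The part of these tissues in the miR-206-3p level of GCI library 1 was not tested. In GCI library 1 miR-206-3p was 6.34 times its next highest library. The same ratio was 1.14 for miR-1a-3p, 1.02 for miR-133b-3p and 0.752 for miR-133a-3p. Of the 4 other striated muscle miRNAs, miR-486a-5p, miR-486b-5p and miR-378a-3p were highest of all libraries in GCI library 1. miR-499-5p, at 6.02 CPM, was not. The miR-486a-5p and miR-486b-5p counts are nearly the same, so they are not separate observations. The share of all tested miRNAs that were highest in this library was not counted, so this is not shown to be particular to muscle miRNAs. Of 440 tested miRNAs 9 were above 2 times their next highest library in GCI library 1, and after miR-206-3p the next was miR-1249-3p at 2.73 times. The same count was 1 in GCI library 3 and 0 in GCI library 2 and in each Sham library. These ratios were chosen after the values were seen.

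The tested miRNAs whose pattern over the 6 libraries was most like that of each muscle miRNA were found by the root mean square difference of log2 CPM, each centred on its own mean. For miR-1a-3p these were miR-344b-3p (0.044), miR-188-5p (0.091) and miR-27b-3p (0.12), against its own departure from a flat pattern of 0.33. miR-344b-3p stood at 562, 295 and 473 CPM in GCI libraries 1, 2 and 3 and at 453, 492 and 337 CPM in Sham libraries 3, 6 and 7, the same order of libraries as for miR-1a-3p. For miR-133a-3p they were miR-877-5p (0.15), miR-92b-3p (0.16) and miR-665-3p (0.21), and for miR-133b-3p miR-879-3p (0.10), miR-3473b (0.18) and miR-10b-5p (0.20). For miR-206-3p the nearest, miR-1249-3p (0.69), miR-219a-2-3p (0.80) and miR-542-3p (0.80), remained far from it, against its own departure of 1.3. Among the muscle miRNAs, miR-133a-3p and miR-133b-3p were the most alike (0.16) and miR-133a-3p and miR-206-3p the least (1.3). The points share library and depth, and 436 other miRNAs were searched over 6 libraries, so these distances are a description.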

How the data were processed

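Small RNA was sequenced from 6 brain samples. Per the labels' protocols, TRIzol RNA was made into libraries with the NEBNext small RNA kit, sized for inserts of 15 to 35 nt. Each deposited table holds whole read counts for mature miRNAs, which the authors left unnormalized. The submitters' processing notes name cutadapt and Bowtie; the sources used here give no versions, genome build, miRNA reference or rule for reads that match several miRNAs. All count columns were used.

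Of 50 names with repeated rows, 22 had identical counts in all 6 libraries; for each the row of highest total was used. Libraries of a group differed beyond counting noise, and GCI libraries differed more than Sham libraries. Chi-square per degree of freedom was 35.8 to 56.4 for pairs of Sham libraries and 180 to 505 for pairs of GCI libraries. Counts were tested with edgeR 4.0.16 (quasi-likelihood, TMM, filterByExpr with a minimum count of 10 and a minimum total of 15) in R 4.3.3, on group alone, with Benjamini-Hochberg adjustment over 440 miRNAs; all 4 muscle miRNAs passed the filter. Standard errors come from the F statistic. Ratios used counts plus 0.5 and two-sided exact permutation tests (scipy 1.17.1). On simulated data for this comparison, run on 440 miRNAs, 200 were given a change. Among those that passed the filter, the edgeR test called 57 of the 78 given a 2-fold change. It called 55 of the 55 given a 4-fold change and 2 of the 237 given none. The simulation changed far more miRNAs than the 10 called in the real data, and gave both groups the same spread. In the real data the median CV was 25.1% in GCI and 12.7% in Sham, so these shares need not hold there. Alternatives used DESeq2 1.42.0, limma-voom (limma 3.58.1) and other scalings, filters, row choices and omissions.

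The members, the marker lists and the rule for named miRNAs were chosen with earlier results of these data known. That rule took all members, the other striated muscle and vessel wall lists, the marker lists, and the 3 miRNAs most like each member in pattern.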

Additional observations from a re-analysis of the deposited data

How the results depend on the processing

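The count of muscle miRNAs called was 0 of 4 under all 17 alternatives. Their log2 fold changes kept their sign under every alternative that kept all 6 libraries, but each changed sign with some library left out: from −0.076 to 0.33 for miR-1a-3p, −0.28 to 0.25 for miR-133a-3p, −0.19 to 0.30 for miR-133b-3p and −0.33 to 2.34 for miR-206-3p. For miR-206-3p the sign changed without GCI library 1. Over all miRNAs the count of calls, 10, was 4 with RLE scaling, 4 when the 5 most abundant were omitted and 26 with DESeq2. With single libraries left out it ranged from 0 to 100, being 1 without GCI library 1, 100 without GCI library 2, and 0 without GCI library 3 or Sham library 6 (57 and 44 at an unadjusted p under 0.05, edgeR). The cause was not tested. The differences in log2 ratio (GCI minus Sham) ranged over single omissions from −0.060 to 0.39 for miR-1a-3p to miR-133a-3p, −0.26 to 1.47 for miR-206-3p to miR-133b-3p, −1.30 to 0.21 for miR-1a-3p to miR-206-3p and −0.21 to −0.00099 for miR-133a-3p to miR-133b-3p. Other counts added or other row choices changed no sign among these ratios. No paired analysis was possible because the groups share only the library number 3. Depth limits miR-133b-3p most, with 27 to 47 counts in a library.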
